A study of Mus musculus with 10 samples.

Results

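The small proline-rich (SPRR) and late cornified envelope (LCE) genes were described in whole skin of C57BL/6 mice aged 5 months. They were chosen by symbol, 34 genes of the 23282 entries in each library's table, namely 15 Sprr genes (Sprr1a, Sprr1b, 11 Sprr2 genes, Sprr3 and Sprr4) and 19 Lce genes (12 Lce1, 6 Lce3 and Lce6a). All 34 symbols were found. Of the 10 libraries, 5 were of STAT3cKO mice, whose keratinocytes alone had STAT3 ablated, and the other 5 of wild-type (WT) mice. The sources used here do not give the driver of the ablation, the deleted exons, sex or litter. Whole skin holds many cells in which STAT3 was not ablated. The labels do not state whether 1 mouse gave 1 library, so the spread behind the p-values is that between libraries, and may be partly technical.

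The cornified envelope is the protein shell that replaces the plasma membrane of a keratinocyte as it dies at the skin surface. Transglutaminases cross-link its precursors. SPRR proteins act as flexible bridges between larger precursors such as loricrin, and LCE proteins are added late, in the uppermost living layers. Sprr1 and Sprr2 genes are known for their induction in stressed or wounded epidermis, Lce1 genes for normal differentiation of skin, and Lce3 genes for induction when the barrier is disturbed. STAT3 is a transcription factor that carries signals of interleukin and growth factor receptors to the nucleus.

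The 34 genes stand in the epidermal differentiation complex of chromosome 3. In the GENCODE annotation of mm10 they span chr3:92215799-93019060, or 803.3 kb, with the Sprr genes first (chr3:92215799-92500493), then Lce6a (chr3:92620081-92621660, minus strand) and then the Lce1 and Lce3 genes. Lce1m (chr3:93017810-93019060) lies apart from the other Lce1 genes, on the far side of the Lce3 genes (chr3:92925287-92993426). The libraries read the 3′ ends of transcripts, so reads of copies with alike ends cannot be assigned with certainty. For each member the last 300 bases of its longest transcript were cut into words of 50 bases, and in 18 of 34 members every word was found in no other mouse gene. These 18 included Lce1g, Lce1f, Lce1l, Lce1m, Lce6a, Sprr1a and Sprr1b. The lowest shares of unique words were 0% in Sprr2a1 and Sprr2a2, whose ends are identical over these bases, and 19.9% in Sprr2a3. Sprr2a1 was listed at 0 in all 10 libraries while Sprr2a2 was not, and the level given for Sprr2a2 may hold reads of either. Among Lce1 genes the lowest share was 67.3%, in Lce1b.

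The promoters differed between the families in their letters. RefSeq promoters on GRCm38.p6 were found for 32 of the 34 genes, and the 250 bases before the start site were searched on both strands for 7 motifs. The AP-1 motif TGANTCA was present in 9 of 14 Sprr promoters and in 0 of 18 Lce promoters, against 6.75% of all 32851 promoters. It lay 176 to 198 bases before the start site in Sprr2 promoters. The stretches around it are shown so that the bases beside the motif can be compared. They were chosen by the motif, so the motif itself is shared by design. Each holds the motif in capitals with 10 bases on either side, 5′ to 3′ on the strand of the gene.
Sprr1a, first match (chr3:92485981-92486007, minus strand): gggaggagggTGAGTCAtaggtgactg
Sprr1a, second match (chr3:92486011-92486037, minus strand): taactaaagcTGAGTCAgagggtgaac
Sprr1b (chr3:92438874-92438900, minus strand): gcacctaggaTGAATCAtgtctgacag
Sprr2b (chr3:92316500-92316526, plus strand): aaaggactctTGAGTCAcaagactcaa
Sprr2d (chr3:92338937-92338963, plus strand): gagtgctcacTGAGTCAcaggtctcaa
Sprr2e (chr3:92351940-92351966, plus strand): gagtgctcacTGAGTCAcaggtctcaa
Sprr2f (chr3:92364980-92365006, plus strand): aactgaatatTGAGTCAcagtgctcaa
Sprr2h (chr3:92385477-92385503, plus strand): ggatggtctcTGAGTCActgcacttta
Sprr2i (chr3:92407788-92407814, plus strand): aagggctcacTGAGTCAcaggactgaa
Sprr2k, first match (chr3:92432376-92432402, plus strand): gaatgtcctcTGAGTCActgtacttga
Sprr2k, second match (chr3:92432390-92432416, plus strand): tcactgtactTGACTCAgtgactatgt
Sprr2d and Sprr2e were identical over this stretch, and 9 of the 11 matches in the 9 genes read TGAGTCA. The second match of Sprr1a overlapped a match to TGACNNNGC on the other strand, and the other matches overlapped none of the motifs searched. The STAT motif TTCNNNGAA was present in 2 of the 32 promoters, those of Lce1l and Sprr2a3, against 7.02% of all promoters. The TATA motif TATAAA was present in 10 of 14 Sprr and 4 of 18 Lce promoters (12.4% of all), CCACCC in 5 of 14 and 0 of 18 (28.1% of all), and TGACNNNGC in 2 of 14 and 5 of 18 (10.2% of all). CCGGAA (12% of all) and TTGCGCAA (0.164% of all) were in none of the 32. A match is a description of letters only, and a missing match says only that these letters are not in the window.

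The promoters of Sprr1a, the most abundant Sprr gene, of Lce1g and Lce6a, the 2 genes called higher in STAT3cKO, and of Lce1m, the most abundant member of all, are given for comparison. AP-1 and TATA matches are in capitals.
Sprr1a (chr3:92485882-92486131, minus strand): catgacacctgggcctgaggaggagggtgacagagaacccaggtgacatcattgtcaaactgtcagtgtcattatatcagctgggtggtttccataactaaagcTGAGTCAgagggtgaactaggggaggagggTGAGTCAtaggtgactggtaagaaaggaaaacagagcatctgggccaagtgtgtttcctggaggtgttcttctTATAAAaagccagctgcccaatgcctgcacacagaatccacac
Lce1g (chr3:92752339-92752588, minus strand): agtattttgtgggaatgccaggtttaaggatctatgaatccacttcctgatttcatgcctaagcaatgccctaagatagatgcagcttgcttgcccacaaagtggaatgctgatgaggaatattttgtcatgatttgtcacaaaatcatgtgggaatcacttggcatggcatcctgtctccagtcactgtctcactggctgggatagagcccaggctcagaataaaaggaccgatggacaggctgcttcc
Lce6a (chr3:92621661-92621910, minus strand): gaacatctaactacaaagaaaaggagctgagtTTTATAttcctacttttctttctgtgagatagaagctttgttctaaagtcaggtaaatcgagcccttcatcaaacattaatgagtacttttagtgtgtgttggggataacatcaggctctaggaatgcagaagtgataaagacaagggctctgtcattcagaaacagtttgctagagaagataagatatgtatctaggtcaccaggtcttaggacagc
Lce1m (chr3:93019062-93019311, minus strand): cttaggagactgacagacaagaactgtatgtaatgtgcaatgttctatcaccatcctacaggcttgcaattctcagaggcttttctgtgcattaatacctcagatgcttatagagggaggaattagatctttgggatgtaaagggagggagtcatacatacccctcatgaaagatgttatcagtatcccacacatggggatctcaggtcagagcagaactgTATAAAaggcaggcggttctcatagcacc
These stretches hold 2 AP-1 matches in Sprr1a and none in the 3 Lce genes. The TATA match ends 38 bases before the start site in Sprr1a and 24 bases before it in Lce1m. That of Lce6a is 213 bases away and on the other strand, and Lce1g has none.

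Values are the log2 values the authors deposited, of scaled reads plus 1, and values of up to 0.08 stand for no read. Reads come from the 3′ end of a transcript and do not grow in number with its length, so levels of different genes were set side by side on this scale. Estimated depth was 6870000 to 20200000 reads. A gene was tested with limma when its value reached 5 in at least 5 libraries, which left 11536 genes, and was called at an adjusted p under 0.05. Of these, 61 were higher and 53 lower in STAT3cKO. With all libraries scaled to the same sum the split was 75 to 39. The number of tested genes without a read was 2617 in STAT3cKO 2 and 1273 in WT 3, and 83 to 1097 in the other libraries. Krt14, a defining keratin of basal keratinocytes, stood at 10.82 to 14.16 in the 10 libraries. Stat3 itself stood at 9.70, 9.08, 10.27, 9.27 and 10.29 in WT 1 to 5, against 10.25, 9.98, 10.81, 9.49 and 10.13 in STAT3cKO 1 to 5, a change of 0.41 (limma adjusted p = 0.700). Reads from the 3′ end do not test a deletion elsewhere in the gene, and other skin cells keep Stat3, so this does not check the genotype labels.

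STAT3cKO skin had higher levels of Lce1g and Lce6a than WT skin. Lce1g rose 15.5-fold and Lce6a 4.55-fold. Of the 12 Lce1 genes 1 passed the test and 12 had a positive change, with a median of 1.49 on the log2 scale. Of the 3 tested Sprr genes 0 passed and 2 were positive, with a median of 1.34, and the families were not tested against each other. The mean of 12 suprabasal keratinocyte genes was also higher in STAT3cKO (median change 1.18, 0 called) and that of 13 adipocyte genes lower (median change −2.26, 1 called), and their part in these results was not tested. Relative to the suprabasal genes Lce6a was not called (0.59, limma adjusted p = 0.447). Of the 34 members 17 were tested, 2 were called higher and 0 lower. Over all tested genes 0.529% were called higher and 0.988% in either direction, beside 2 of 17 members. Of the 5167 tested genes with a mean of at least 8, 104 were called in either direction, with a median change of −0.03 and 48.0% positive. The change was positive in 16 of 17 tested members, with a median of 1.51, against 43.8% of all tested genes and a median of −0.16. STAT3cKO lay wholly above WT in 3 of 17 members, and WT wholly above STAT3cKO in none. Among all tested genes the shares were 1.71% for STAT3cKO above WT and 3.42% in either direction. Sprr1b reached 5 in 4 STAT3cKO libraries and 1 WT library, so that its place among the tested genes owes most to the group in which it was higher.

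**Figure D1:**
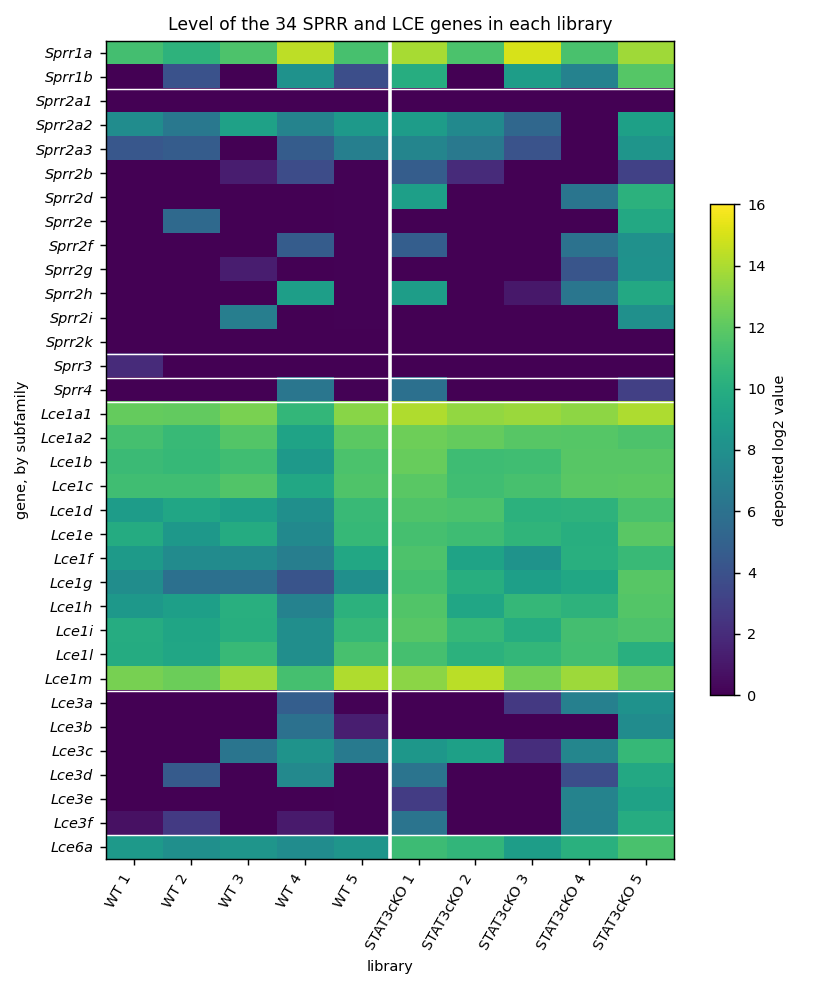
Level of each of the 34 genes (rows, by subfamily) in each of the 10 libraries (columns, WT left and STAT3cKO right of the thick white line), as deposited log2 values by colour. Lce1 genes and Sprr1a were present in every library, most Sprr2 and Lce3 genes in few, and STAT3cKO 5 held reads of 31 of the 34 genes.

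The Lce1 genes, which code for late precursors of the envelope, had a larger sum of reads than all Sprr genes in every library but WT 4. Lce1m and Lce1a1 were the most abundant members, with means over the 10 libraries of 13.02 and 12.94, and stood at ranks 132 and 140 among all 23282 entries. With the log undone, the Lce1 sum was 22200, 19000, 34300, 6980 and 46700 scaled reads in WT 1 to 5, against 62200, 50500, 34700, 44500 and 51700 in STAT3cKO 1 to 5. The mean sum in STAT3cKO was 1.89 times that in WT, but WT 5 lay within the STAT3cKO range. The mean of the 12 log2 values was 9.92 ± 1.07 in WT and 11.41 ± 0.48 in STAT3cKO (SD, n = 5 each).

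Lce1g was the least abundant Lce1 gene in WT. Its values were 7.83, 5.89, 5.96, 4.15 and 7.99 in WT 1 to 5, against 11.29, 10, 9, 9.50 and 11.82 in STAT3cKO 1 to 5. The groups did not overlap, and STAT3cKO 3, the lowest STAT3cKO library, was nearest to WT 5, the highest WT library. By limma the difference was 3.96, with a standard error of 0.76, a 95% interval of 2.36 to 5.56 and an adjusted p of 0.0146. The value of Lce1g minus the mean of the other 11 Lce1 genes was −3.88 ± 0.91 in WT and −1.19 ± 0.86 in STAT3cKO (SD, n = 5 each). In this difference the groups did not overlap either. They overlapped in the same difference for Lce1m and Lce1a1. Lce6a minus the mean of the 12 Lce1 genes was −1.71 ± 0.85 in WT and −1.01 ± 0.59 in STAT3cKO (SD, n = 5 each), with overlap. The limma call was lost without WT 3 (adjusted p = 0.0522), STAT3cKO 1 (0.0745) or STAT3cKO 5 (0.0707), and the change stayed between 3.4 and 4.37 with any 1 library left out. The call was also lost without mean trend and robust estimation (limma adjusted p = 0.136). In the 4 deeper libraries the change was 3.80 (limma adjusted p = 0.118), and in the 6 shallower libraries 4.06 (limma adjusted p = 0.279).

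Lce1a1 was the other Lce1 gene whose groups did not overlap. Its values were 12.21, 12.17, 12.76, 10.62 and 13.16 in WT 1 to 5, against 14.12, 13.42, 13.59, 13.31 and 14.05 in STAT3cKO 1 to 5. The gap between WT 5 and STAT3cKO 4 was small beside the spread in WT. The change of 1.51 (SE 0.38, 95% interval 0.71 to 2.32) did not pass the test (limma adjusted p = 0.0720). It did pass without WT 4 (1.12, limma adjusted p = 0.0434) or WT 5 (1.76, adjusted p = 0.0314).

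Lce1d had the second lowest p of the Lce1 genes, just ahead of Lce1a1. It stood at 8.82, 9.47, 9.04, 7.98 and 10.83 in WT 1 to 5, against 11.58, 11.44, 10.31, 10.36 and 11.40 in STAT3cKO 1 to 5. WT 5 lay among the STAT3cKO libraries. Its change was 1.79 (SE 0.46, limma adjusted p = 0.0720), and without WT 5 it was 2.19 (limma adjusted p = 0.0141).

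The 2 other abundant genes showed smaller differences. Lce1m stood at 12.70, 12.42, 13.67, 11.27 and 14.10 in WT 1 to 5, against 13.21, 14.32, 12.65, 13.68 and 12.20 in STAT3cKO 1 to 5. The groups overlapped almost fully, and the change was 0.38 (95% interval −0.79 to 1.55, limma adjusted p = 0.818). Lce1a2 stood at 11.26, 10.81, 11.74, 9.29 and 11.99 in WT 1 to 5, against 12.47, 12.20, 11.83, 11.79 and 11.52 in STAT3cKO 1 to 5. Here WT 3 and WT 5 lay within the STAT3cKO range, and the change was 0.94 (95% interval 0.06 to 1.83, limma adjusted p = 0.422). Without WT 4 it was 0.51 (limma adjusted p = 0.535).

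The changes of the other 7 Lce1 genes were 0.64 in Lce1c, 0.81 in Lce1l, 1.07 in Lce1b, 1.47 in Lce1i, 1.62 in Lce1e, 1.78 in Lce1h and 1.88 in Lce1f, with standard errors of 0.37 to 0.62. None of these 7 passed the test by limma, with adjusted p from 0.179 to 0.586. Without WT 4 the change was 0.28 in Lce1c, 0.32 in Lce1l and 0.58 in Lce1b. At an unadjusted p under 0.05, 9 of the 12 Lce1 genes were higher, against 4.95% of all tested genes.

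**Figure D2:**
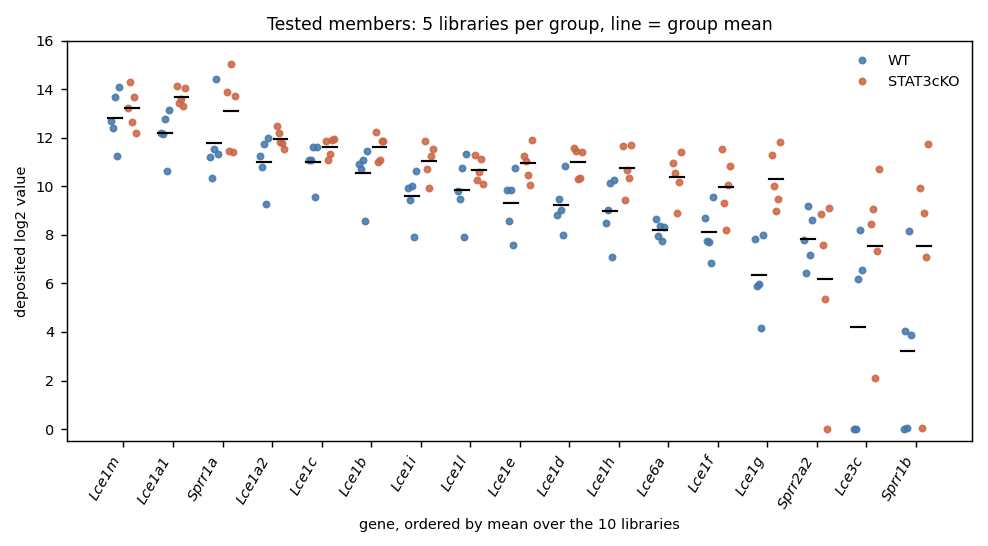
Deposited log2 value of the 17 tested members in each library (points; blue WT, orange STAT3cKO, 5 libraries each) with the group mean as a line, ordered by the mean over all 10 libraries. The groups are apart in Lce1g, Lce6a and Lce1a1 and overlap in the other 14.

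By abundance, the 10 tested members with a mean of at least 10 had changes of 0.38 to 1.79, with a median of 1.2, and 0 of them were called. The 7 with a mean under 10 ranged from −1.65 to 4.32, with a median of 2.19, and 2 of them were called. Standard errors were 0.37 to 0.94 in the former and 0.45 to 2.16 in the latter. The ranges overlapped, and the 3 largest standard errors were those of Sprr1b, Lce3c and Sprr2a2.

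The make-up of the Lce1 reads differed between libraries. Lce1m gave 30.0, 28.8, 37.9, 35.2 and 37.6% of the Lce1 sum in WT 1 to 5, against 15.2, 40.5, 18.5, 29.4 and 9.08% in STAT3cKO 1 to 5. It was thus the leading Lce1 gene in every WT library, while Lce1a1 led in STAT3cKO 1, 3 and 5. Lce1g gave 0.458 ± 0.344% in WT and 3.23 ± 2.35% in STAT3cKO (SD, n = 5 each), without overlap between the groups. The shares of the other 11 genes overlapped. Reads carry no molecular identifiers named in the labels, so these shares describe reads, not molecules.

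**Figure D3:**
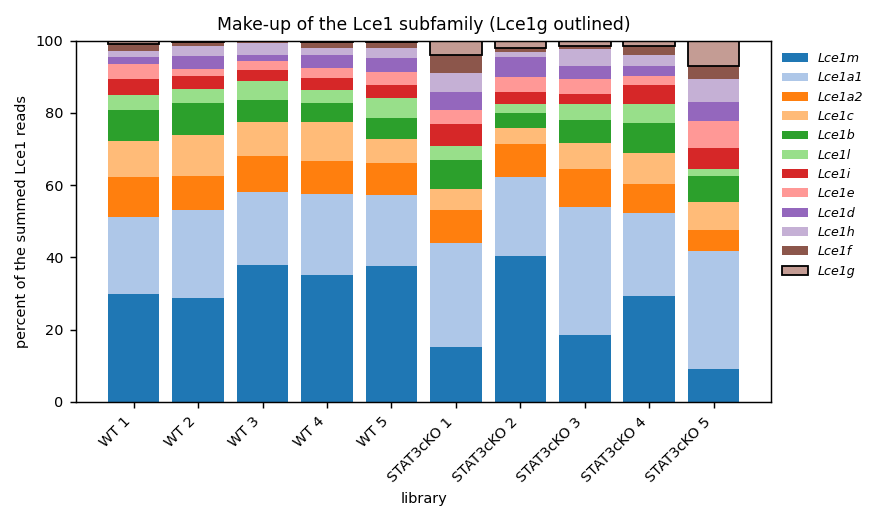
Share of each of the 12 Lce1 genes in the summed Lce1 reads (percent, log undone) in each library. Lce1g (outlined, top of each bar) gave 0.178 to 1.02% in WT and 1.47 to 7.01% in STAT3cKO, and Lce1m (bottom) was lowest in STAT3cKO 5 with 9.08%.

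Lce6a, the single member of its subfamily and the Lce gene nearest to the Sprr genes, had the smallest spread of all tested members in WT. Its values were 8.65, 7.96, 8.37, 7.76 and 8.32 in WT 1 to 5, against 10.97, 10.55, 8.91, 10.18 and 11.40 in STAT3cKO 1 to 5. The groups did not overlap, with STAT3cKO 3 nearest to WT. By limma the difference was 2.19, with a standard error of 0.45, a 95% interval of 1.24 to 3.13 and an adjusted p of 0.0220. Its limma call was lost without WT 2 (adjusted p = 0.0595), STAT3cKO 1 (0.0888) or STAT3cKO 5 (0.0762), and without mean trend and robust estimation (0.155). In the 4 deeper libraries the change was 2.48 (limma adjusted p = 0.0502), and in the 6 shallower libraries 1.99 (limma adjusted p = 0.546). Without both STAT3cKO 2 and WT 3 neither gene was called, with changes of 3.94 in Lce1g (limma adjusted p = 0.0838) and 2.19 in Lce6a (limma adjusted p = 0.0705).

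The Lce3 genes had few reads, and 1 of the 6 was tested. Lce3c stood at 0, 0, 6.19, 8.19 and 6.56 in WT 1 to 5, against 8.45, 9.08, 2.09, 7.33 and 10.70 in STAT3cKO 1 to 5. It had no read in WT 1 and WT 2 and reads in all 5 STAT3cKO libraries, but STAT3cKO 3 lay below 3 WT libraries. The change of 3.34 (95% interval −0.83 to 7.51) did not pass (limma adjusted p = 0.560), and it was 9.01 in the 4 deeper libraries (limma adjusted p = 0.210) and −0.44 in the 6 shallower ones (limma adjusted p = 0.987).

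The other 5 Lce3 genes had reads in 3 to 6 of the 10 libraries. STAT3cKO 5 was the highest library for all 6 Lce3 genes, with Lce3d at 9.67, Lce3e at 9.19, Lce3f at 9.93, Lce3a at 8.18 and Lce3b at 7.81. STAT3cKO 4 held 5 of the 6, with Lce3e at 7.13 and Lce3f at 7.11, and WT 4 also held 5, with Lce3d at 7.54 and Lce3b at 5.98. Lce3e had no read in any WT library and stood at 2.84, 7.13 and 9.19 in STAT3cKO 1, 4 and 5. The summed scaled Lce3 reads were 0.627, 28.2, 72.1, 566 and 95.1 in WT 1 to 5, against 495, 540, 8.66, 571 and 4540 in STAT3cKO 1 to 5. The groups overlapped widely, and STAT3cKO 5 held far more than any other library.

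Sprr1a, a cross-bridging precursor, was the most abundant Sprr gene. Its values were 11.20, 10.36, 11.54, 14.42 and 11.35 in WT 1 to 5, against 13.90, 11.44, 15.04, 11.43 and 13.74 in STAT3cKO 1 to 5. It was high in WT 4 and STAT3cKO 1, 3 and 5, at 13.74 to 15.04, and lower in the other 6 libraries, at 10.36 to 11.54, so that the split ran across the genotypes. By limma the difference was 1.34, with a standard error of 0.94, a 95% interval of −0.80 to 3.47 and an adjusted p of 0.636. The same 4 libraries had the highest mean of 8 tested genes of the hair shaft and inner root sheath, 11.1 to 15.1, against 0.193 to 7.20 in the other 6. Of those genes Krt35, a hair keratin, had no read in WT 1 to 3 and STAT3cKO 2 and 4, and stood at 12.06 in WT 4. The part of hair-forming cells in the level of Sprr1a was not tested. In bulk skin, fewer cells of a type and less RNA per cell cannot be told apart.

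Sprr1b, the other Sprr1 gene, stood at 0, 4.06, 0.06, 8.17 and 3.87 in WT 1 to 5, against 9.94, 0.06, 8.90, 7.10 and 11.75 in STAT3cKO 1 to 5. It had no read in WT 1, WT 3 and STAT3cKO 2, and WT 4 lay among the STAT3cKO libraries. The change of 4.32 had a standard error of 2.16 and a 95% interval of −0.23 to 8.87 (limma adjusted p = 0.491). With 1 library left out it lay between 3.27 (without STAT3cKO 5) and 6.19 (without STAT3cKO 2, limma adjusted p = 0.106). It was 7.40 in the 4 deeper libraries (limma adjusted p = 0.186) and 2.27 in the 6 shallower ones (limma adjusted p = 0.864).

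Sprr2a2, whose level may hold reads of its copies, stood at 7.80, 6.42, 9.18, 7.16 and 8.62 in WT 1 to 5, against 8.87, 7.6, 5.36, 0 and 9.12 in STAT3cKO 1 to 5. Only STAT3cKO 4 had no read, and without that library the change went from −1.65 (limma adjusted p = 0.713) to −0.10 (adjusted p = 0.973). Sprr2a3 was absent from STAT3cKO 4 too, and from WT 3, and reached 8.37 in STAT3cKO 5.

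The other Sprr2 genes were not tested. Sprr2h stood at 8.98 in WT 4, without a read in the other 4 WT libraries, and at 8.91, 1.06, 6.25 and 9.64 in STAT3cKO 1, 3, 4 and 5. Sprr2d had no read in any WT library and stood at 9.04, 6.24 and 10.30 in STAT3cKO 1, 4 and 5. Both genes were thus strong in some STAT3cKO libraries and missing in others. Sprr2f was found in WT 4 (4.64) and STAT3cKO 1, 4 and 5 (4.81, 6.06 and 8.09). Sprr2e was found in WT 2 (5.49) and STAT3cKO 5 (9.68), Sprr2g at over 4 in STAT3cKO 4 and 5 (4.22 and 8.18), and Sprr2i in WT 3 (6.86) and STAT3cKO 5 (8.02). Sprr2b did not exceed 4.73. The 8 Sprr2 genes outside the Sprr2a copies summed to 0, 44.0, 118, 540 and 0 scaled reads in WT 1 to 5, against 1060, 2.86, 1.09, 233 and 3710 in STAT3cKO 1 to 5. STAT3cKO 5 was the highest library and WT 4 the highest WT library, as for Lce3.

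Sprr3, known from the lining of mouth and oesophagus, had a value above the level of a read in WT 1 alone, at 1.98. Sprr4, a member known to be induced by ultraviolet light, stood at 6.25 in WT 4, 5.90 in STAT3cKO 1 and 3.06 in STAT3cKO 5. Sprr2k was listed at 0 in all 10 libraries. At the estimated depths, no read allows a level of up to 3 reads in the library, counting error only. In a fit without the filter 15 further members entered, of which 0 were called and 2 had an unadjusted p under 0.05. The lowest belonged to Sprr2d, with a change of 5.10 (limma adjusted p = 0.430).

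Keratinocytes under stress express Krt6a, Krt16, S100a8 and S100a9. The mean of 7 tested genes of this list of 12 was 5.21, 5.96, 7.31, 8.06 and 6.18 in WT 1 to 5, against 9.22, 8.16, 7.74, 7.80 and 12.4 in STAT3cKO 1 to 5. It was highest in STAT3cKO 5, the library with the most Lce3 and Sprr2 reads, and in WT it was highest in WT 4, the WT library with the most of both. All 7 tested genes had a positive change (median 2.46), and 0 were called. S100a9 had the lowest p of the list, with a difference of 3.29 and an adjusted p of 0.521 by limma. WT 4 also had the fewest tested genes without a read of all libraries, 83. It held reads of 26 members, against 18 to 20 in the other WT libraries. The part of the stressed state, or of detection, in the Lce3 and Sprr2 levels was not tested.

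**Figure D4:**
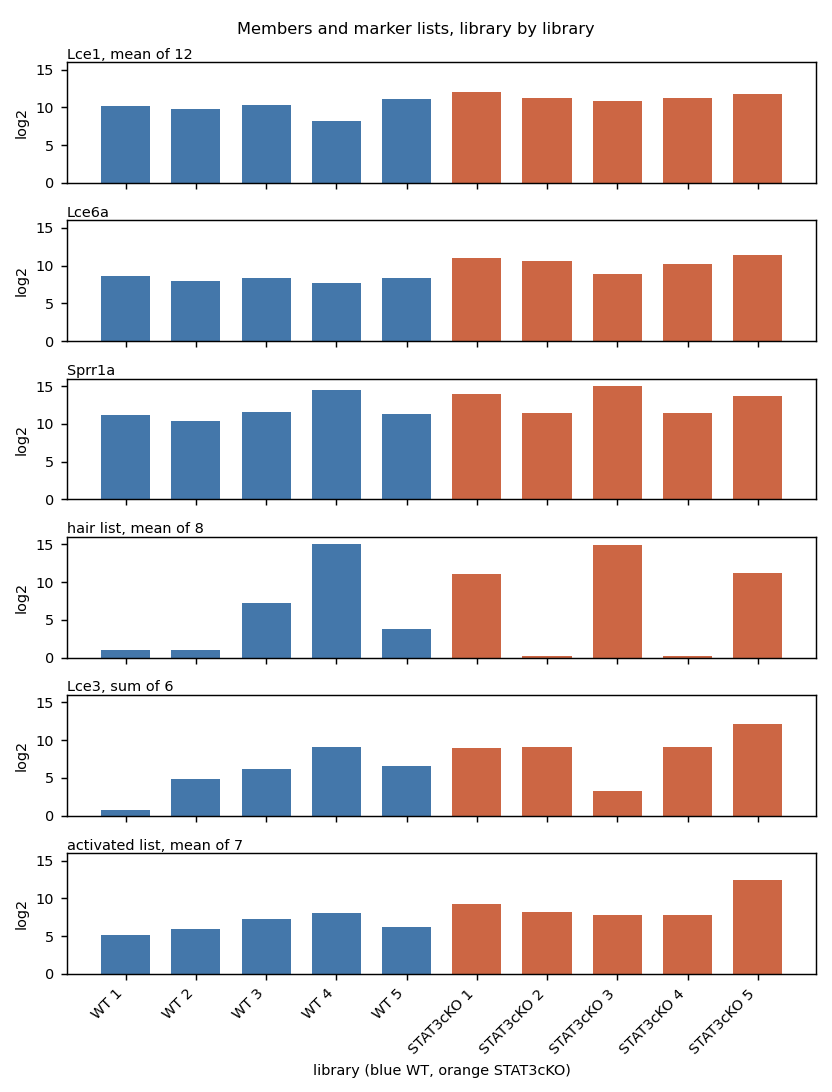
Log2 level in each library (bars from 0; blue WT, orange STAT3cKO) of the Lce1 mean, Lce6a, Sprr1a, the mean of 8 hair genes, the summed Lce3 reads and the mean of 7 genes of activated keratinocytes. WT 4 is lowest in Lce1 and highest in the hair genes, and STAT3cKO 5 is highest in Lce3 and in the activated keratinocyte genes.

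WT 4 stood apart from the other WT libraries in both directions. It was the lowest of the 10 libraries for all 12 Lce1 genes and the highest WT library for Sprr1a, Sprr1b, Sprr2h and Lce3c. Without it the Lce1m change went from 0.38 to −0.01, and Lce6a, Lce1a1 and Lce1g were called.

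The skin samples also differed in their make-up. The mean of 13 adipocyte genes was 11.4 to 13.4 in WT and 9.17 to 11.3 in STAT3cKO, without overlap, and that of 13 skeletal muscle genes was 10.5 to 14.3 in WT and 7.85 to 13.3 in STAT3cKO. The mean of 12 basal keratinocyte genes was 8.95 to 10.4 in WT and 9.26 to 10.8 in STAT3cKO. That of 12 suprabasal keratinocyte genes, among them Krt1 and Krt10, was 9.28 to 11 in WT and 11 to 12.2 in STAT3cKO, with 12 of 12 changes positive, a median of 1.18 and 0 calls. Krt1, with the lowest p of these, differed by 3.44 (SE 0.72, limma adjusted p = 0.0540), close in size to Lce1g. Means of fibroblast (10.8 to 12.8), macrophage (7.95 to 10.7), endothelial (6.73 to 8.34) and sebaceous gland genes (7.92 to 10.5) overlapped between the groups. Of the cell type lists, sebaceous gland had 2 genes called higher (Soat1 and Elovl3), and adipocytes and fibroblasts 1 each called lower (Car3 and Dpt). The sebaceous gland list as a whole was not higher, with 5 of 11 tested genes positive and a median change of −0.007. In the lists without a call the lowest p belonged to Actn3 of skeletal muscle (−4.30, limma adjusted p = 0.365), Lyz2 of macrophages (−2.0, limma adjusted p = 0.100), Tek of endothelium (2.43, limma adjusted p = 0.546), Krt14 of basal keratinocytes (1.30, limma adjusted p = 0.250) and Krt35 of hair (2.27, limma adjusted p = 0.798). The part of these differences in the Lce1 and Lce6a levels was not tested. No gene of these lists was at 0 in all libraries.

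Members were therefore also compared relative to keratinocyte genes. With each library centred on the basal genes, the change by limma was 3.66 in Lce1g (adjusted p = 0.0173) and 1.89 in Lce6a (adjusted p = 0.213). The median change of all genes moved from −0.16 to −0.45. With each library centred on the suprabasal genes, the median of all genes was −1.76, and 3597 genes were called lower and 16 higher. Lce1g was the only member called higher on this scale, with a change of 2.36 (limma adjusted p = 0.0291), where the adjustment is lenient because so many genes pass. That of Lce6a was 0.59 (limma adjusted p = 0.447). The median of the 17 members was −0.08, and 8 of them had a positive change. Relative to suprabasal genes, then, the changes of Lce1 genes lay on both sides of 0, from −1.22 in Lce1m to 2.36 in Lce1g.

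**Figure D5:**
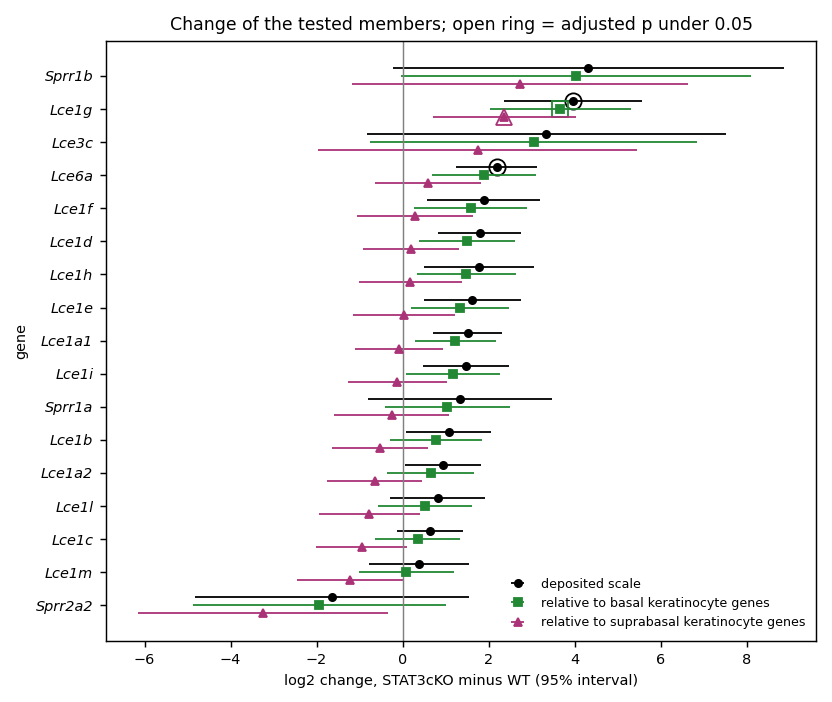
Log2 change, STAT3cKO minus WT, with its 95% interval for the 17 tested members on the deposited scale (black), relative to basal keratinocyte genes (green) and relative to suprabasal keratinocyte genes (magenta), where a larger open symbol marks an adjusted p under 0.05. Lce1g is marked on all 3 scales and Lce6a on the deposited scale, and relative to suprabasal genes 9 of the 17 lie below 0.

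Other genes of the envelope and of late differentiation were read as a list of 40, of which 37 were tested, 2 were higher, 0 lower and 35 did not pass. All 12 suprabasal genes above are in this list too, so its counts are not separate from theirs. The median change was 0.96 and 33 of 37 were positive. Hrnr, which codes for hornerin, a filaggrin-type protein of the same gene complex, had a change of 3.4 (SE 0.37, limma adjusted p = 0.000122), and Ppl, the envelope protein periplakin, one of 1.39 (SE 0.29, limma adjusted p = 0.0273). Both were above WT in all 5 STAT3cKO libraries.

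Among 30 transcription factors and partners known to act on this gene complex 27 were tested, 3 were higher and 0 lower, with a median of 1.04 and 25 of 27 positive. The 3 were components of AP-1. Fos stood at 5.38, 3.58, 1.26, 5.38 and 4.89 in WT 1 to 5, against 11.60, 12.21, 10.42, 10.54 and 9.87 in STAT3cKO 1 to 5 (6.83, SE 0.96, limma adjusted p = 0.000762). In WT only WT 1 and WT 4 reached 5. The place of Fos among the tested genes thus owes most to the group in which it was higher. The change by limma was 1.77 in Junb (adjusted p = 0.0186) and 2.16 in Jun (adjusted p = 0.0293). The groups did not overlap in any of the 3.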

How the data were processed

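RNA from whole skin of STAT3cKO and WT mice aged 5 months was made into 3′ libraries, 5 per group, with the Lexogen QuantSeq kit, per the labels' protocols. Bowtie2, bedtools and mm10 are named, per the submitters' processing notes, and the sources used here do not give versions, annotation, strand setting or scaling. Deposited values are on a log2 scale, as deposited by the authors. From the values, they are log2 of scaled reads plus 1, with sums of 9690000 to 11400000 per library, and the reads behind them, 6870000 to 20200000, were estimated from the smallest steps. Depth sets a bound on precision at low levels. By counting error only, a library without a read can hold up to 3 reads of a gene at 95% confidence. Genes without a read did not follow depth alone, so the true limit can be wider. Of the tested genes, 742 had no read in WT 1 (17800000 reads) and 83 in WT 4 (9300000 reads).

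Groups were taken from the labels. Genes with a value of at least 5 in at least 5 libraries were fitted with limma 3.58.1 in R 4.3.3 (empirical Bayes with mean trend, robust, no covariates) and adjusted by Benjamini-Hochberg over all 11536 tested genes, with a threshold of 0.05. The fit was tested on simulated data. The members and gene lists were chosen with earlier results of these data known. Values in each library are given for members called, members without overlap between groups, the 2 of lowest p in each subfamily and the 3 most abundant of Sprr and of Lce. From the other lists the genes called are named, or those of lowest p. Gene positions are those of GENCODE M21 on mm10, and promoters those of RefSeq on GRCm38.p6. Tables and plots were made with Python 3.11.15, pandas 2.3.3 and matplotlib 3.10.9. Alternatives covered the filter, the pseudocount, the scaling, centring on keratinocyte genes, the moderation, library weights, a replicate block and leaving out libraries. Replicate numbers were not used to pair samples.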

Additional observations from a re-analysis of the deposited data

Results flagged for a closer look

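In each of the 34 combinations of a tested member and a group, the library at either end was compared with its neighbours. By chance about 1 in 20 such groups holds a library that stands this far off. A single library stood apart in 3 of them, and each time it was WT 4. Sprr1a in WT 4 was 14.42, against 10.36 to 11.54 in the other 4 WT libraries. Lce1b in WT 4 was 8.58, against 10.71 to 11.46. Lce1c in WT 4 was 9.57, against 11.08 to 11.63. WT 4 also had the highest mean of the hair shaft and inner root sheath genes of the 10 libraries, 15.1. Without WT 4 the change was 2.00 in Sprr1a, 0.58 in Lce1b and 0.28 in Lce1c, and none of the 3 was called by limma.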

How the results depend on the processing

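The 17 tested members were refitted under 24 alternatives, and 0 members were called lower in any of them. Of all genes, 61 were higher and 53 lower at first. The number of members called higher was 2. It became 4 with a pseudocount of 16 (90 genes higher, 85 lower) and 1 with centring on basal genes (21 and 35). It was 1 with centring on suprabasal genes (16 and 3597) and 0 without mean trend and robust estimation (13 and 31). With library weights it was 8 (202 and 173). The count was 0 without both STAT3cKO 2 and WT 3 (57 and 37). Among the deeper libraries it was 0 (82 and 92), and among the shallower ones 0 (12 and 4). Quantile normalization gave 95 and 81 and called Lce1a1 in place of Lce1g (limma adjusted p = 0.0555 for Lce1g). Centring on the median of the suprabasal genes, chosen after seeing the data, called 1 member (23 and 3457). With the replicate block 1 member, Lce1g, was called (34 and 32), and Lce6a was not (limma adjusted p = 0.054). To see whether replicate numbers pair the samples, each gene's group mean was taken away and the remaining deviations were correlated between WT and STAT3cKO libraries. Deviations of same-numbered libraries correlated at −0.155 to 0.0159, and 0 of 5 WT libraries correlated best with their own number. These are not correlations of the levels themselves. Leaving out 1 library gave 0 to 4 members higher, and 29 to 96 genes higher and 24 to 111 lower in all. The lowest count of all genes called higher came without STAT3cKO 1, the highest without WT 4.

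Changes of Lce1g ranged from 2.36 to 4.82 and of Lce6a from 0.59 to 2.56 over the 24, and the call was kept in 16 and 13 of them. Some directions turned. Relative to suprabasal genes the changes were −0.26 in Sprr1a, −0.08 in Lce1a1, −0.65 in Lce1a2, −0.53 in Lce1b, −0.96 in Lce1c, −0.13 in Lce1i, −0.78 in Lce1l and −1.22 in Lce1m. Relative to their median they were −0.13 in Sprr1a, −0.52 in Lce1a2, −0.40 in Lce1b, −0.83 in Lce1c, −0.65 in Lce1l and −1.09 in Lce1m. Lce1m, at −0.01 to 0.70 with 1 library left out, turned without WT 4, and Lce3c among the shallower libraries (−0.44). Centring moves every gene by the same amount in a library, and the cause of these differences was not tested. Members with a read did not follow depth alone, with 18 in WT 1 (17800000 reads) and 26 in STAT3cKO 1 (7700000 reads). What depth limits is the lowest level that can be seen, since no read in a library allows up to 3, counting error only. The deposited tables do not show how reads of near-identical copies were assigned.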
